A study of Mus musculus with 14 samples.

Results

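Enzymes that write, read or erase marks on histones and DNA, and enzymes that move nucleosomes, were followed in ovalbumin-specific CD8+ T cells after 4 forms of antigen. They were taken by gene symbol from a deposited table of 10106 genes. The rule uses no measured value, but it was chosen with earlier results of these data known. The symbols cover the HDAC and sirtuin deacetylases, the KAT acetyltransferases, the KDM demethylases, the KMT, SETD, SUV, EZH and PRMT methyltransferases, the PRC2 subunits Eed and Suz12, the DNMT, UHRF and TET proteins, and the SMARC, CHD and BRD proteins. The rule found 108 entries under 107 symbols, because Hdac4 was listed on 2 entries, of which the second had no match in the annotation and is called the second Hdac4 entry. A mean of at least 1 RPKM (read number divided by gene length and by library size) was required for testing, and 107 entries passed. Uhrf1bp1 did not, with a mean of 0.503 RPKM and a range of 0.275 to 0.811 over the libraries. Uhrf1bp1 and Uhrf1bp1l fall under the rule by name alone and were given no chromatin role. Setd8, Suv420h1, Suv420h2 and Prmt10 are older symbols of Kmt5a, Kmt5b, Kmt5c and Prmt9.

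All 14 libraries came from OT-I cells, which are CD8+ T cells of a mouse line whose transgenic T cell receptor recognises the ovalbumin peptide SIINFEKL. CFSE-labelled CD45.1+ OT-I cells were given to CD45.2+ C57BL6j recipients aged 8 to 12 weeks, and antigen or saline was injected by vein a day later. Spleens were taken on day 4, and viable CD3e+ CD8+ CD45.1+ cells were sorted after magnetic selection. Every antigen was dosed at 223 pmol. The Naive group (3 libraries) received saline, the OVA group (3) free ovalbumin, and the SIINFEKL group (2) free peptide. The ERY1-OVA group (3) received ovalbumin joined to ERY1, a peptide that binds erythrocytes, and the TER119-SIINFEKL group (3) received the peptide joined to TER119, an antibody that binds erythrocytes. All groups therefore share the transgenic receptor and the transfer, and the design names the Naive group as the background of resting cells. The labels do not say that replicates were separate mice, so p-values measure the spread between these samples, which may be technical.

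As background, DNA methylation is copied to the new strand after replication by Dnmt1, which Uhrf1 recruits to hemimethylated sites, and is placed at unmethylated sites by Dnmt3a and Dnmt3b. TET enzymes oxidise methylcytosine and so start its removal. PRC2 places repressive methyl groups on lysine 27 of histone H3 through Ezh2 or Ezh1, with Eed and Suz12 as core subunits, and Suv39h1 and Suv39h2 place the lysine 9 mark of heterochromatin. KMT2 enzymes methylate lysine 4 at enhancers and promoters. Acetyltransferases and deacetylases add and remove acetyl groups, and SWI/SNF and CHD complexes reposition nucleosomes. A T cell that divides has to copy these marks with its DNA, and EZH2, DNMT1 and DNMT3A are known for their roles in CD8+ T cell differentiation.

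Promoters are shown for the 4 chromatin genes with the largest rise and the 2 with the largest fall between the Naive and OVA groups, to set the sequences beside expression that moved in opposite directions. They come from RefSeq on GRCm38.p6 and run 5′ to 3′ on the gene's strand, from 250 bases before a transcription start to 50 after it. Where RefSeq lists several starts, the start whose window held most annotated transcript starts was taken. Those may lie anywhere in the window, so the start taken need not be the main one. Capitals mark, on either strand, the letters of E2F-type sites (TTTCCCGC, TTTCGCGC, TTTGCCGC or TTTGGCGC) and CCAAT boxes (CCAAT). The windows are chr17:56304063-56304362 (plus strand) for Uhrf1, chr6:47594981-47595280 (minus) for Ezh2, chr2:3474937-3475236 (minus) for Suv39h2, chr9:20952574-20952873 (minus) for Dnmt1, chr5:25498734-25499033 (minus) for Kmt2c and chr14:21499520-21499819 (plus) for Kat6b.
Uhrf1: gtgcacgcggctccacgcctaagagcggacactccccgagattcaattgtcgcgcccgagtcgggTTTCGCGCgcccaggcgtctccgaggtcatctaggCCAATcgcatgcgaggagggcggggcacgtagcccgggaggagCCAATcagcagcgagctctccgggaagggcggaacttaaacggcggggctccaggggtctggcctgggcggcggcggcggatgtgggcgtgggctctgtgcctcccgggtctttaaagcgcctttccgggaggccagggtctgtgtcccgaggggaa
Ezh2: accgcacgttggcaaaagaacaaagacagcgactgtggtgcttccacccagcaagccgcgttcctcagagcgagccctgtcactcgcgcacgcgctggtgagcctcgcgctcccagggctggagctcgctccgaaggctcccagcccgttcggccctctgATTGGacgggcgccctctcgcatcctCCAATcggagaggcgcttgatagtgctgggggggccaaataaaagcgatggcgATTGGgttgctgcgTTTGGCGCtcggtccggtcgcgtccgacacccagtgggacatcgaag
Suv39h2: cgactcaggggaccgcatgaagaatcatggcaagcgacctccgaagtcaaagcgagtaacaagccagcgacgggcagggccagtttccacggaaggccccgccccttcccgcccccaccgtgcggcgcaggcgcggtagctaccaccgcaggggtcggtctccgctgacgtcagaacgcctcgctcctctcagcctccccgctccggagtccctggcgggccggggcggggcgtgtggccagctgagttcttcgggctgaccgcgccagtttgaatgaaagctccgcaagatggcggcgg
Dnmt1: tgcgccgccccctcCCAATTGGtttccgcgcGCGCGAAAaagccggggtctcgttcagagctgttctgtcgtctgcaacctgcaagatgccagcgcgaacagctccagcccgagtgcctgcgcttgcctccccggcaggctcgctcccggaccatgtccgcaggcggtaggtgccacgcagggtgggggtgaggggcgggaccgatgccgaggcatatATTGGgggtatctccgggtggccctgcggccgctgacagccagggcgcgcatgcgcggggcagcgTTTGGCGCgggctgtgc
Kmt2c: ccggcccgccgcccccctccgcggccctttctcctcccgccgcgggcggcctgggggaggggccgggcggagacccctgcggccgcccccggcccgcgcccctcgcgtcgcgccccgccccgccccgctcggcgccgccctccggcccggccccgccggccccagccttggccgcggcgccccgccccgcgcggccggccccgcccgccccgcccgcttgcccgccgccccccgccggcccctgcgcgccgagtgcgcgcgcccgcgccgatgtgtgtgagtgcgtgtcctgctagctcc
Kat6b: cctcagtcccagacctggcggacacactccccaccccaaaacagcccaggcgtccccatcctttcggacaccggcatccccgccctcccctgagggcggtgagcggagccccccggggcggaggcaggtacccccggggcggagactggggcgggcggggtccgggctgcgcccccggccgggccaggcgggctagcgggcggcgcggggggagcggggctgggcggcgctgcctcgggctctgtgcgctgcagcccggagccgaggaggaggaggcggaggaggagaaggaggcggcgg

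In these windows Uhrf1 held 1 E2F-type match and 2 CCAAT boxes, Ezh2 held 1 and 3, and Dnmt1 held 2 and 3, of which 2 CCAAT matches overlap on opposite strands. Counted from the start taken for each window, the first base of the Uhrf1 E2F-type match lies at position -185. That of Ezh2 lies at 3, and those of Dnmt1 at -219 and 33. The start taken for Dnmt1 is the most downstream of the 3 listed. Its window may therefore hold transcribed bases ahead of that start, and its 2 positions need not be promoter positions. The windows at the other listed starts of Uhrf1 and Dnmt1 held 0 E2F-type matches. Suv39h2, Kmt2c and Kat6b held neither set of letters in the window shown. A promoter was found for 83 of the 107 symbols, and 9 of their 111 promoters (8.11%) held an E2F-type match, against 4.36% of the 9305 promoters of tested genes and 2.26% of all 32851 promoters. CCAAT was as frequent among these promoters (38.7%) as among tested genes (38.4%) and all promoters (37.4%). A match describes letters in a window and no binding was measured.

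Markers of CD8+ T cells were high in every library, with a summed level of 1402 to 2392 RPKM over 4 genes, while Cd4 stayed between 0.182 and 1.31 RPKM. The CD8+ sum was 2107 to 2392 RPKM in Naive libraries and 2047 to 2114 after SIINFEKL. It was 1550 to 1814 after OVA, 1714 to 1879 after ERY1-OVA and 1402 to 1857 after TER119-SIINFEKL. Of the 4 genes, 3 were called lower after OVA, 2 after ERY1-OVA, 2 after TER119-SIINFEKL and 0 after SIINFEKL. Over all genes 23.1%, 19.0%, 23.0% and 8.34% were called lower there. Of other cell types the table used here held few markers: 2 of 5 for B cells, 4 of 4 for MHC class II, 2 of 6 for macrophages, 2 of 6 for erythroid cells, and 1 each for endothelium and stroma (Pecam1), NK cells (Klrb1c) and dendritic cells (Itgax). For the first 4 lists the summed levels spanned 8.49 to 27.5, 6.37 to 68.3, 3.50 to 15.6 and 1.53 to 20.3 RPKM. Of the 2 macrophage markers, 1 was called higher after each of OVA, ERY1-OVA and TER119-SIINFEKL. Of the 4 MHC class II genes, 1 was called lower after ERY1-OVA. Pecam1, which T cells also express, read 27.7 to 32.9 RPKM in Naive libraries, 20.9 to 27.0 after OVA, 37.6 to 41.0 after ERY1-OVA, 48.2 and 65.7 after SIINFEKL, and 33.6 to 42.8 after TER119-SIINFEKL. It was called higher after SIINFEKL and ERY1-OVA and in ERY1-OVA against OVA, and lower in TER119-SIINFEKL against SIINFEKL. Klrb1c was called lower after OVA (-0.92 ± 0.33, adjusted p = 0.031) and higher in TER119-SIINFEKL against SIINFEKL (1.21 ± 0.36, 0.019), and Itgax, at 0.770 to 3.20 RPKM over the libraries, higher after OVA (0.84 ± 0.32, 0.046). The B cell sum, which holds Cd22 and Cd79b, was 8.49 to 10.3 RPKM in Naive libraries and 12.8 to 27.5 after antigen. The 2 genes did not move alike. The lower of their 2 log2 fold changes was 0.22 after OVA, 0.60 after ERY1-OVA, 0.47 after SIINFEKL and 0.60 after TER119-SIINFEKL. The higher was 4.18, 4.03, 3.33 and 4.94 in the same order. Which of the 2 genes each value belongs to is not given here. After each antigen 1 of the 2 was called higher. The highest MHC class II and macrophage sums, 68.3 and 15.6 RPKM, were in OVA replicate 1. The highest erythroid sum, 20.3 RPKM, and the highest Klrb1c level, 14.7 RPKM, were in TER119-SIINFEKL replicate 1, whose MHC class II sum of 34.6 RPKM was the second highest. The part of other cells in the results below was not tested. In bulk RNA, fewer cells of a type and less RNA per cell cannot be told apart. The same libraries, OVA replicate 1 and TER119-SIINFEKL replicate 1, read low in long genes relative to their groups, with rank correlations of -0.47 and -0.46 between deviation and exon length across genes. The SIINFEKL pair differed most from each other, with a within-group SD over chromatin genes of 0.28 on the log2 scale against 0.15 to 0.25 in the groups of 3, and results that rest on it are given without each library where the call changed. Results that touch length are given below with a correction for exon length and GC content.

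Against the Naive group, more chromatin genes fell than rose after OVA, ERY1-OVA and TER119-SIINFEKL, and few were called after SIINFEKL. After OVA, 25 of 107 rose and 36 fell at an adjusted p under 0.05, which is 57.0% called, against 47.6% of all genes tested (24.4% higher and 23.1% lower). After ERY1-OVA 18 rose and 26 fell (41.1%, against 39.9% of all genes, 20.9% higher and 19.0% lower). After TER119-SIINFEKL 24 rose and 31 fell (51.4%, against 47.6%, 24.6% higher and 23.0% lower), and the split was even, 28 and 28, without OVA replicate 1 and TER119-SIINFEKL replicate 1. After SIINFEKL 7 rose and 5 fell (11.2%, against 15.9%, 7.58% higher and 8.34% lower), and with the length and GC correction 17 rose and 7 fell. Rises were near the shares of all genes, and falls took 33.6% of the chromatin genes after OVA, 24.3% after ERY1-OVA and 29.0% after TER119-SIINFEKL, above the shares of all genes. The median log2 fold change was -0.07, 0.00, -0.08 and 0.08 in the order OVA, ERY1-OVA, TER119-SIINFEKL and SIINFEKL, beside -0.04, -0.01, -0.00 and -0.01 over all genes.

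These comparisons share the Naive libraries, so each is given with its own values. Ezh2, Kdm8 and Hdac10 were called higher after all 4 antigens, and Kat2a and Prmt3 lower, and the SIINFEKL call of each was lost in some of the alternatives. That of Kdm8 (0.57 ± 0.17, adjusted p = 0.039) was lost in 9 of 17, without either SIINFEKL library or any Naive library among them. Prmt1 was the only gene called in opposite directions, higher after OVA and TER119-SIINFEKL and lower after SIINFEKL. Of the calls against Naive, 41 of 61 after OVA, 28 of 44 after ERY1-OVA and 43 of 55 after TER119-SIINFEKL held in every alternative run apart from a 2-fold requirement, and 0 of 12 after SIINFEKL. Without SIINFEKL replicate 1 that comparison had 1 higher and 0 lower, and without SIINFEKL replicate 2 it had 12 and 10.

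**Figure D1:**
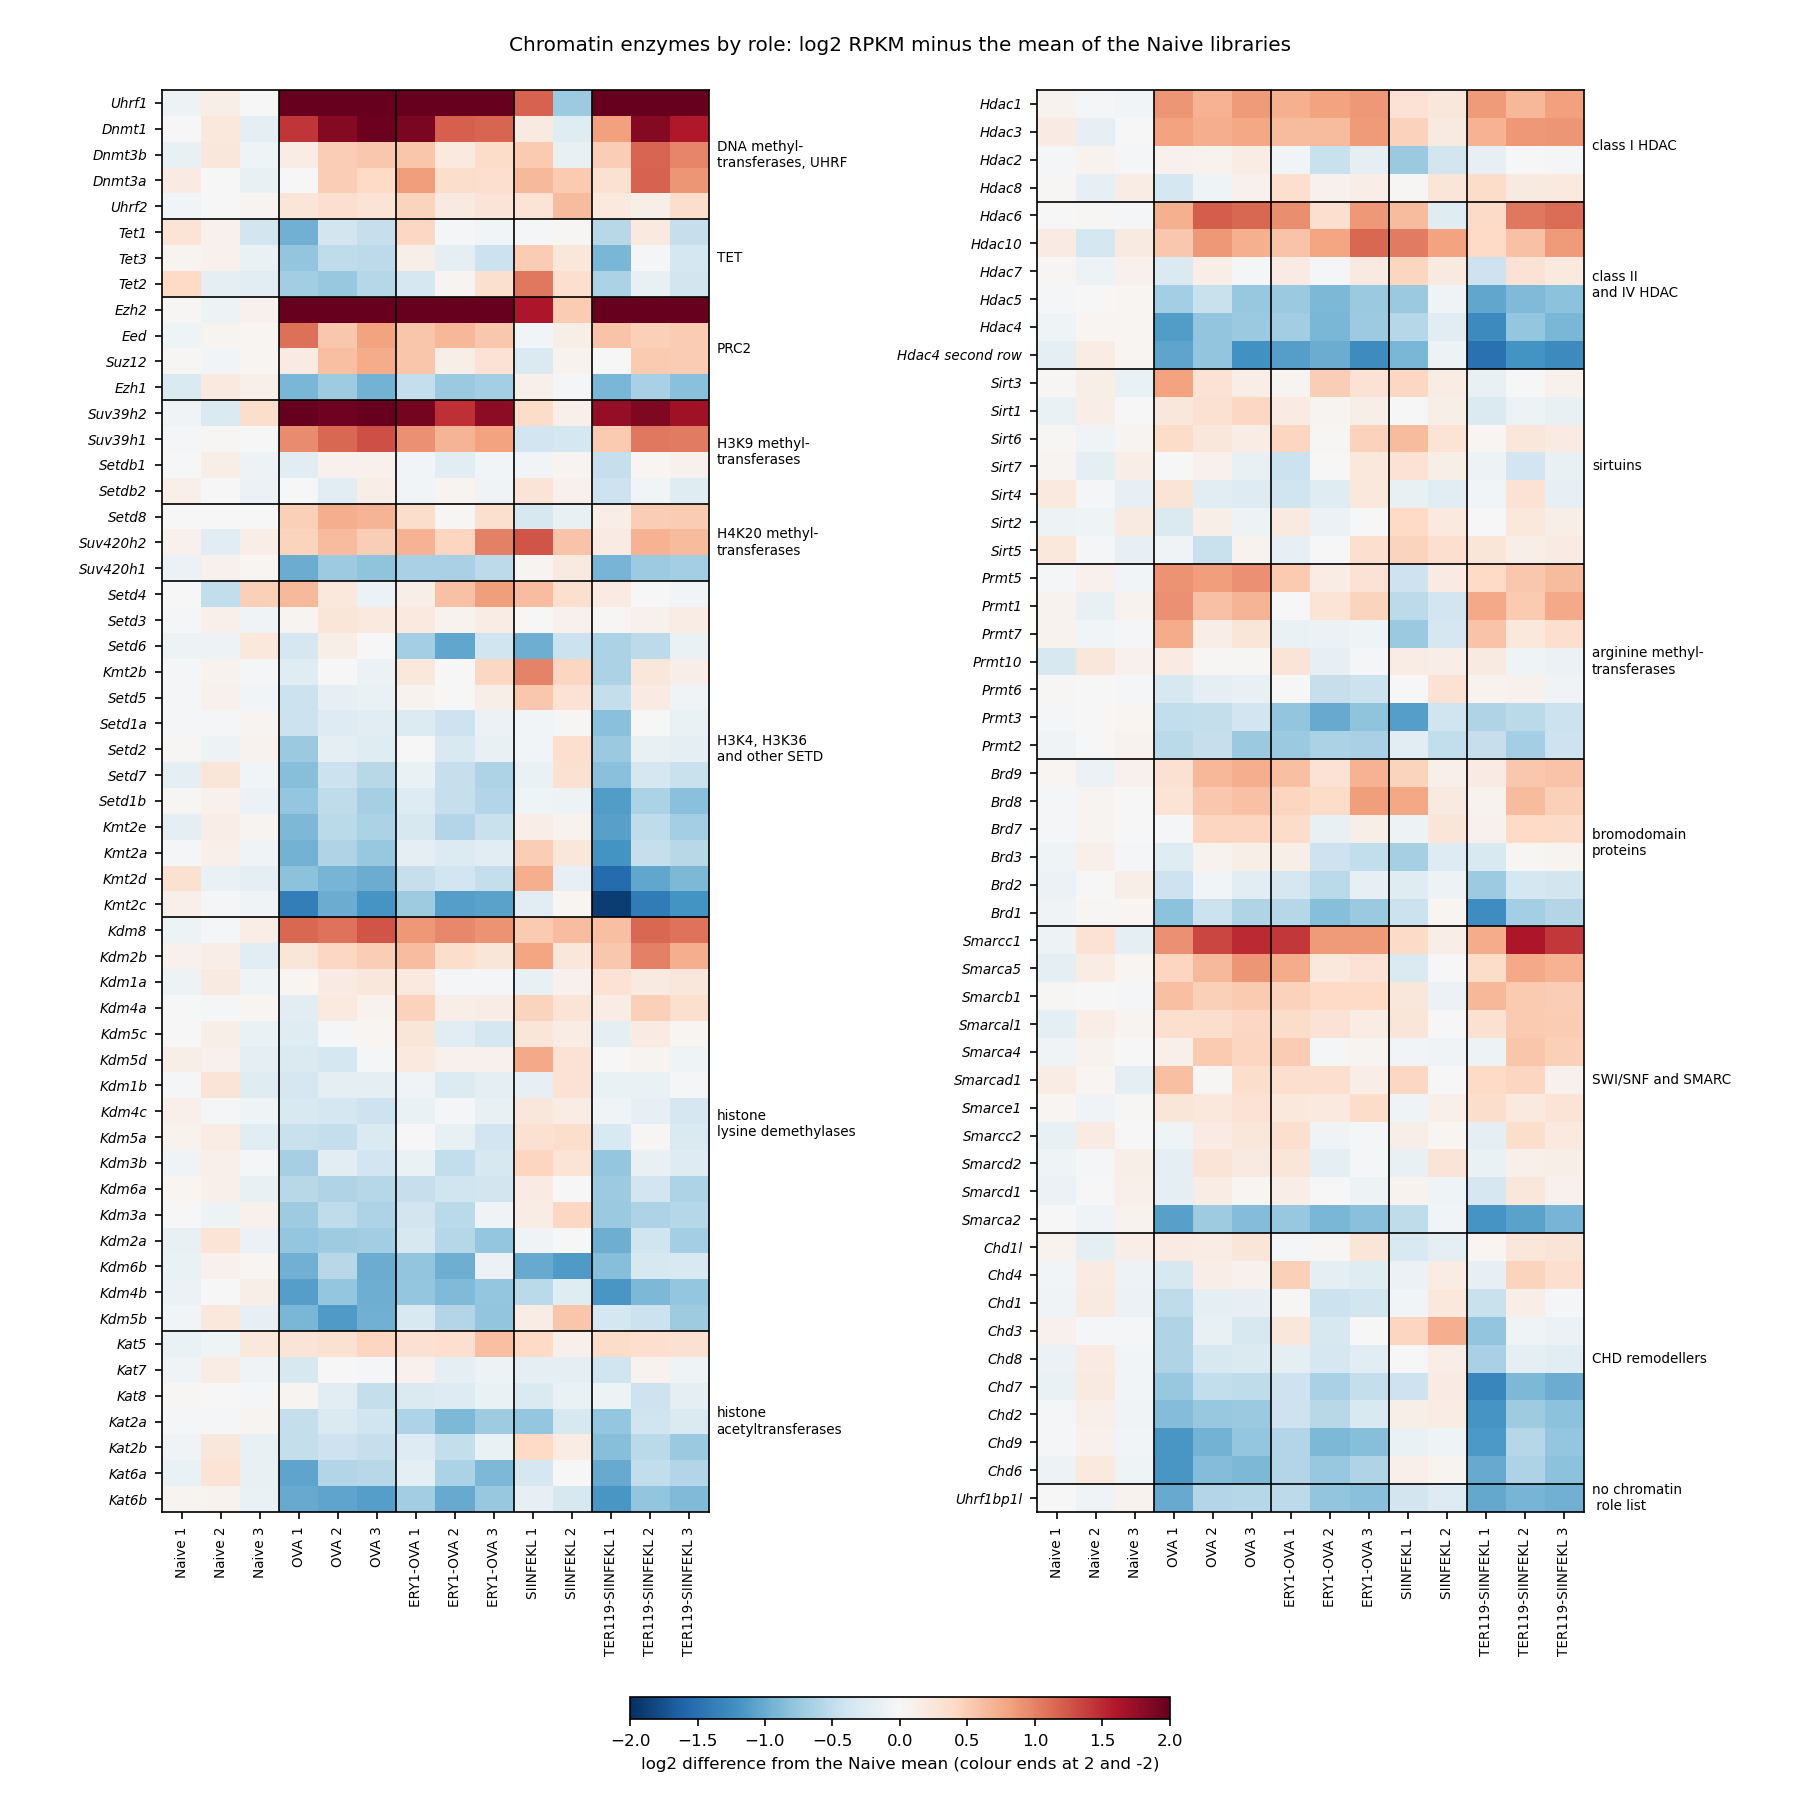
Each cell is the log2 RPKM of 1 of 106 tested entries (rows, grouped by role) in 1 library (columns) minus the mean of the 3 Naive libraries, with colours ending at 2 and -2. Uhrf1, Dnmt1, Ezh2 and Suv39h2 are red in every OVA, ERY1-OVA and TER119-SIINFEKL library, Kmt2c, Kdm4b and Chd6 are blue there, and the SIINFEKL columns are mostly pale.

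The machinery that maintains DNA methylation rose. Uhrf1, the factor that brings Dnmt1 to newly copied DNA, read 5.76, 6.68 and 6.10 RPKM in Naive libraries, 83.4, 108 and 123 after OVA, 89.2, 62.0 and 68.4 after ERY1-OVA, 14.01 and 3.74 after SIINFEKL, and 52.8, 91.2 and 88.1 after TER119-SIINFEKL. Every OVA, ERY1-OVA and TER119-SIINFEKL library lay far above every Naive library, and the SIINFEKL libraries lay on either side of the Naive range. The log2 fold change was 4.07 ± 0.36 (SE) after OVA (16.8-fold, adjusted p = 1.8e-06), 3.55 ± 0.36 after ERY1-OVA (6.8e-06) and 3.61 ± 0.36 after TER119-SIINFEKL (4.7e-06). After SIINFEKL it was 0.23 ± 0.40 (adjusted p = 0.74). Uhrf1 had the largest change of all 107 in the first 3 comparisons.

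Dnmt1 itself read 24.4, 28.4 and 21.5 RPKM in Naive libraries, 66.6, 87.8 and 95.9 after OVA, 91.2, 56.3 and 54.9 after ERY1-OVA, 27.8 and 20.9 after SIINFEKL, and 43.5, 87.7 and 75.0 after TER119-SIINFEKL. The SIINFEKL libraries fell within or beside the Naive range and all other antigen libraries above it. The log2 fold change was 1.74 ± 0.26 after OVA (adjusted p = 0.00012), 1.41 ± 0.26 after ERY1-OVA (0.00075) and 1.42 ± 0.26 after TER119-SIINFEKL (0.00054), against -0.03 ± 0.29 after SIINFEKL (0.96).

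The de novo methyltransferases moved less. Dnmt3a read 12.7 to 15.8 RPKM in Naive libraries and 17.3, 31.8 and 26.1 after TER119-SIINFEKL, where it rose by 0.79 ± 0.21 (adjusted p = 0.0073). Dnmt3b read 2.14, 2.76 and 2.22 RPKM in Naive libraries and 3.32, 5.30 and 4.66 after TER119-SIINFEKL, a rise of 0.88 ± 0.22 (0.0050). After the other antigens neither passed the test, with log2 fold changes of 0.29 to 0.58 for Dnmt3a and 0.19 to 0.39 for Dnmt3b. Uhrf2, a relative of Uhrf1, read 21.7 to 23.4 RPKM in Naive libraries and 27.3 and 34.9 after SIINFEKL. Its rise there of 0.45 ± 0.13 (0.029) was lost in 6 of the alternative analyses, leaving out SIINFEKL replicate 2 or any Naive library among them, and after the other antigens it was 0.22 to 0.29 and not called.

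Among the TET genes, Tet2 and Tet3 fell after OVA, and these calls depended on single libraries and on the length correction. Tet2 read 5.32, 3.51 and 3.46 RPKM in Naive libraries, 2.48, 2.38 and 2.71 after OVA, 3.18, 4.15 and 5.01 after ERY1-OVA, 8.29 and 5.06 after SIINFEKL, and 2.60, 3.61 and 3.10 after TER119-SIINFEKL. The OVA libraries were all below the Naive ones, and ERY1-OVA overlapped Naive. Tet2 fell by 0.67 ± 0.23 after OVA (adjusted p = 0.029), and Tet3, at 12.7 to 14.9 RPKM in Naive libraries and 8.15 to 9.87 after OVA, fell by 0.61 ± 0.20 (0.022). With the length and GC correction the values were -0.40 for Tet2 and -0.20 for Tet3 and neither was called. Tet2 was also not called without Naive replicate 1, OVA replicate 1 or OVA replicate 2, and Tet3 not without Naive replicate 1, Naive replicate 2 or OVA replicate 1. Tet1, the scarcest of them at 1.17 to 1.81 RPKM in Naive libraries, was at -0.60 ± 0.26 (0.075). After ERY1-OVA the 3 genes were at -0.17 to 0.11, after TER119-SIINFEKL at -0.43 to -0.27 and after SIINFEKL at 0.00 to 0.69, none called.

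**Figure D2:**
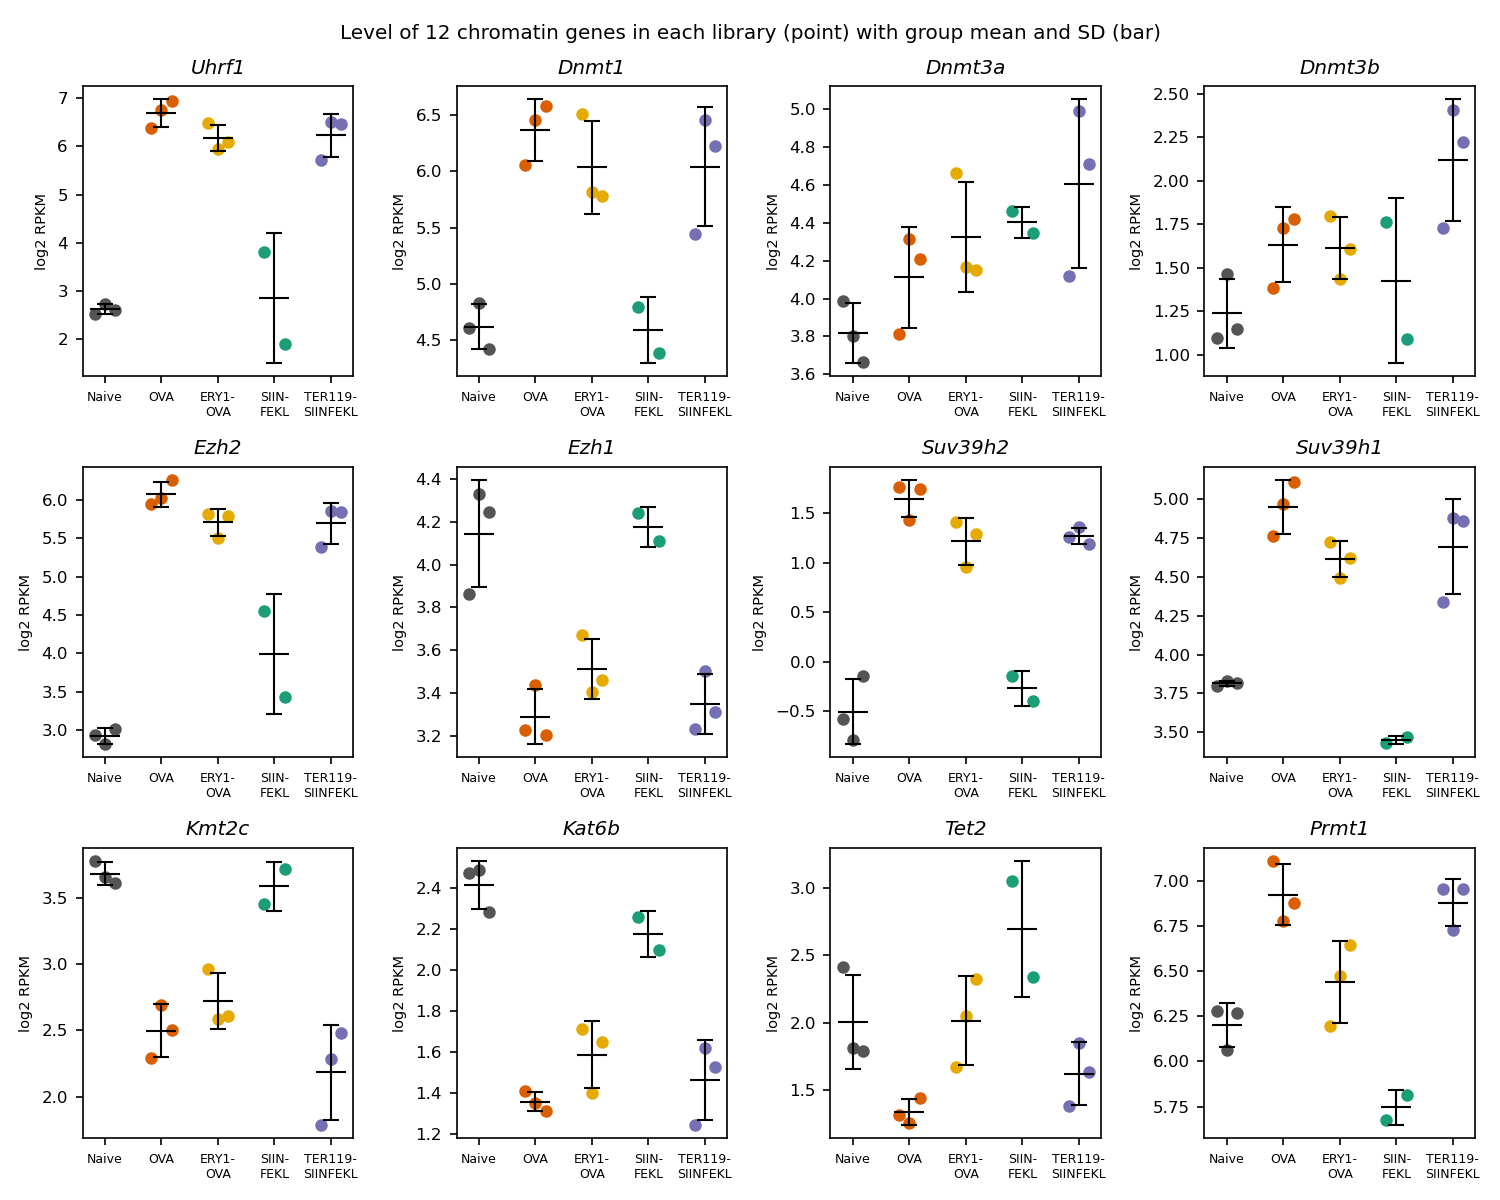
Log2 RPKM of 12 chromatin genes, with a point per library and a horizontal bar with whiskers for the group mean and SD (2 libraries for SIINFEKL, 3 for each other group). For Uhrf1, Ezh2, Suv39h2 and Suv39h1 the OVA, ERY1-OVA and TER119-SIINFEKL points lie above all Naive points, for Ezh1, Kmt2c and Kat6b below them.

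Among PRC2 subunits the alternative catalytic subunits moved in opposite directions. Ezh2 read 7.67, 7.04 and 8.08 RPKM in Naive libraries, 61.7, 65.0 and 76.5 after OVA, 56.5, 45.5 and 55.4 after ERY1-OVA, 23.4 and 10.8 after SIINFEKL, and 41.9, 57.8 and 57.3 after TER119-SIINFEKL. All antigen libraries were above all Naive libraries, with the SIINFEKL pair between the Naive libraries and the rest. Ezh2 rose by 3.15 ± 0.22 after OVA (8.89-fold, adjusted p = 2.9e-07), 2.78 ± 0.22 after ERY1-OVA (1.3e-06), 2.77 ± 0.22 after TER119-SIINFEKL (8.8e-07) and 1.07 ± 0.25 after SIINFEKL (0.012). Without SIINFEKL replicate 1 the SIINFEKL value was 0.51 and not called.

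Ezh1, the form described in resting cells, read 14.5, 20.1 and 18.9 RPKM in Naive libraries, 9.37, 10.8 and 9.22 after OVA, 12.7, 10.6 and 11.0 after ERY1-OVA, 18.9 and 17.3 after SIINFEKL, and 9.39, 11.3 and 9.94 after TER119-SIINFEKL. It was below the Naive range after 3 antigens and inside it after SIINFEKL. The change was -0.85 ± 0.14 (adjusted p = 0.00025), -0.63 ± 0.14 (0.0026) and -0.80 ± 0.14 (0.00038) after OVA, ERY1-OVA and TER119-SIINFEKL, and 0.03 ± 0.15 (0.91) after SIINFEKL. Thus Ezh1 was the higher of the pair in every Naive library, and Ezh2 in every OVA, ERY1-OVA and TER119-SIINFEKL library, on the RPKM scale.

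The scaffold subunits rose less. Eed read 18.4 to 20.2 RPKM in Naive libraries, 28.2 to 42.0 after OVA, 28.3 to 30.8 after ERY1-OVA and 27.2 to 29.0 after TER119-SIINFEKL, with no overlap. Its rises were 0.81 ± 0.13 (adjusted p = 0.00018), 0.58 ± 0.13 (0.0025) and 0.52 ± 0.13 (0.0039). Suz12 read 32.9 to 35.3 RPKM in Naive libraries and 38.2, 52.1 and 57.5 after OVA, a rise of 0.51 ± 0.18 (0.032) that was lost in 7 of 19 alternatives, among them leaving out any Naive library or OVA replicate 2 or 3. After SIINFEKL, Eed and Suz12 were at 0.03 and -0.11.

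Of the lysine 9 methyltransferases, Suv39h1 and Suv39h2 rose together after OVA, ERY1-OVA and TER119-SIINFEKL, and Setdb1 and Setdb2 were not called against Naive. Suv39h2 read 0.669, 0.579 and 0.904 RPKM in Naive libraries, 3.39, 2.70 and 3.36 after OVA, and 2.66, 1.94 and 2.44 after ERY1-OVA. It read 0.906 and 0.760 after SIINFEKL, and 2.39, 2.57 and 2.29 after TER119-SIINFEKL. Every Naive and SIINFEKL value was thus below the limit of 1 RPKM. Suv39h2 passed the filter on the mean only through the OVA, ERY1-OVA and TER119-SIINFEKL groups, where it was high. Suv39h1 read 13.9, 14.2 and 14.1 RPKM in Naive libraries, 27.2 to 34.5 after OVA, 22.5 to 26.5 after ERY1-OVA, 10.8 and 11.1 after SIINFEKL, and 20.2 to 29.3 after TER119-SIINFEKL. Both were above the Naive range in every OVA, ERY1-OVA and TER119-SIINFEKL library, and Suv39h1 was below it in both SIINFEKL libraries. Suv39h2 rose by 2.15 ± 0.21 (adjusted p = 3.3e-06), 1.72 ± 0.21 (2.8e-05) and 1.78 ± 0.21 (1.7e-05) after OVA, ERY1-OVA and TER119-SIINFEKL. Over the alternatives these rises were as low as 1.27, 0.96 and 1.00. Suv39h1 rose by 1.13 ± 0.14 (2.8e-05), 0.80 ± 0.14 (0.00059) and 0.88 ± 0.14 (0.00021), and after SIINFEKL stood at -0.37 ± 0.16 (0.13). Setdb1 and Setdb2 lay between -0.24 and 0.17 in the 4 comparisons with Naive. In TER119-SIINFEKL against SIINFEKL, Setdb2 was lower by 0.40 ± 0.15 (adjusted p = 0.043), a call lost in 8 of 17 alternatives. Where 3 changes are given in a row, they are those after OVA, ERY1-OVA and TER119-SIINFEKL.

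The lysine 20 enzymes of histone H4 divided. Setd8, which places the first methyl group, rose by 0.63 ± 0.12 after OVA (adjusted p = 0.0012), from 28.5 to 28.7 RPKM in Naive libraries to 39.9 to 47.4. Suv420h1, which adds the further methyl groups, fell from 26.0 to 30.0 RPKM in Naive libraries to 14.2 to 17.1 after OVA, 17.98 to 19.57 after ERY1-OVA and 14.8 to 17.7 after TER119-SIINFEKL. The changes were -0.84 ± 0.11 (3.9e-05), -0.61 ± 0.11 (0.00063) and -0.78 ± 0.11 (6.7e-05). Its relative Suv420h2 was at 7.60 to 9.62 RPKM in Naive libraries and 21.0 and 13.0 after SIINFEKL. That rise of 0.91 ± 0.22 (0.015) was lost without SIINFEKL replicate 1 or Naive replicate 2. Suv420h2 was also called higher after OVA (0.52 ± 0.20, 0.042) and ERY1-OVA (0.71 ± 0.20, 0.012). The OVA call was lost without any Naive or OVA library, and the ERY1-OVA call without Naive replicate 2 or ERY1-OVA replicate 3.

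The H3K4, H3K36 and other SETD methyltransferases fell or did not pass the test, apart from Kmt2b after SIINFEKL (0.71 ± 0.23, adjusted p = 0.049), a call lost in 8 of 17 alternatives, without SIINFEKL replicate 1 or any Naive library among them. Of 13, 6 fell after OVA, 4 after ERY1-OVA and 6 after TER119-SIINFEKL, and the list medians were -0.38, -0.27 and -0.43. Over all genes tested 23.1%, 19.0% and 23.0% fell in these comparisons. The counts of single role lists, here and below, were not tested against the shares of all genes. Kmt2c, an enhancer lysine 4 methyltransferase, had the largest fall after OVA and after TER119-SIINFEKL. It read 13.7, 12.6 and 12.2 RPKM in Naive libraries, 4.91, 6.47 and 5.68 after OVA, 7.80, 6.00 and 6.10 after ERY1-OVA, 10.9 and 13.2 after SIINFEKL, and 3.45, 4.88 and 5.58 after TER119-SIINFEKL. All libraries of OVA, TER119-SIINFEKL and ERY1-OVA were below the Naive ones, and the SIINFEKL pair overlapped them. The changes were -1.18 ± 0.18 (adjusted p = 0.00015), -0.96 ± 0.18 (0.00089) and -1.50 ± 0.18 (1.9e-05) after OVA, ERY1-OVA and TER119-SIINFEKL, and -0.10 ± 0.20 (0.78) after SIINFEKL. With the length and GC correction they were -0.78, -0.70 and -1.13, all still called.

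Its paralog Kmt2d, at 34.9, 25.6 and 24.9 RPKM in Naive libraries, read 14.2 to 15.9 after OVA, 20.2 to 21.6 after ERY1-OVA, 46.6 and 25.0 after SIINFEKL, and 9.72 to 15.1 after TER119-SIINFEKL. It fell by 0.92 ± 0.21 after OVA (adjusted p = 0.0033) and 1.16 ± 0.21 after TER119-SIINFEKL (0.00061). With the length and GC correction these became -0.32 and -0.52 and were not called, so the fall of Kmt2d depends on that setting. Kmt2a fell by 0.77 ± 0.16 after OVA (0.0019) and 0.74 ± 0.16 after TER119-SIINFEKL (0.0025), and Setd1b by 0.64 ± 0.14 and 0.87 ± 0.14 (0.0019 and 0.00019). With the correction Kmt2a was at -0.42 and -0.41 and Setd1b at -0.28 and -0.44, all still called, while the ERY1-OVA call of Setd1b (-0.44 ± 0.14) was lost, at -0.10.

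Among demethylases more fell than rose after OVA, ERY1-OVA and TER119-SIINFEKL, where the rises were those of Kdm8 and, after TER119-SIINFEKL, of Kdm2b as well. Of 16, 1 rose and 9 fell after OVA, 1 rose and 5 fell after ERY1-OVA, and 2 rose and 5 fell after TER119-SIINFEKL. Over all genes 24.4% rose and 23.1% fell after OVA, 20.9% and 19.0% after ERY1-OVA, and 24.6% and 23.0% after TER119-SIINFEKL. After SIINFEKL 2 rose (Kdm8 and Kdm5d) and 1 fell, with a list median of 0.24. Over all genes 7.58% rose and 8.34% fell after SIINFEKL, and these counts were near those shares. The Kdm5d call (0.53 ± 0.16, adjusted p = 0.041) was lost in 7 of 17 alternatives, without SIINFEKL replicate 1 or any Naive library among them. Kdm4b, a lysine 9 and 36 demethylase, read 14.7 to 17.5 RPKM in Naive libraries and 7.19 to 9.44 over the 9 libraries of OVA, TER119-SIINFEKL and ERY1-OVA. Its changes were -0.95 ± 0.13 (adjusted p = 8.4e-05), -0.81 ± 0.13 (0.00037) and -0.94 ± 0.13 (7.6e-05). Kdm5b, a lysine 4 demethylase, read 9.69 to 12.6 RPKM in Naive libraries and 4.95 to 5.78 after OVA, a fall of 1.00 ± 0.16 (0.00029). Kdm8, a JmjC-domain protein, rose from 1.87 to 2.20 RPKM in Naive libraries to 4.26 to 4.81 after OVA, by 1.17 ± 0.16 (5.6e-05). Kdm6b, which removes the PRC2 mark, read 13.4, 15.6 and 15.1 RPKM in Naive libraries and 7.29 and 6.70 after SIINFEKL. Both SIINFEKL libraries were below the Naive range, and the fall of 1.07 ± 0.23 (0.0090) was the largest fall of any chromatin gene in that comparison. It was lost when SIINFEKL replicate 1 was left out. After OVA Kdm6b fell by 0.84 ± 0.21 (0.0054).

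Acetyltransferases fell or were not called, apart from Kat5. Of 7, 4 fell after OVA, 3 after ERY1-OVA and 4 after TER119-SIINFEKL, against 23.1%, 19.0% and 23.0% of all genes. Kat6b, which acetylates histone H3, read 5.56, 5.62 and 4.87 RPKM in Naive libraries, 2.66, 2.56 and 2.49 after OVA, 3.28, 2.65 and 3.14 after ERY1-OVA, 4.78 and 4.28 after SIINFEKL, and 2.37, 3.07 and 2.88 after TER119-SIINFEKL. It was below the Naive range in all antigen libraries, and the SIINFEKL pair was nearest to it. The changes were -1.06 ± 0.15 (adjusted p = 7.4e-05), -0.83 ± 0.15 (0.00063), -0.95 ± 0.15 (0.00016) and, after SIINFEKL, -0.24 ± 0.16 (0.34, not called). Kat2a, the GCN5 acetyltransferase, fell after all 4 antigens, by 0.39 ± 0.14 after OVA (0.036), 0.74 ± 0.14 after ERY1-OVA (0.0011), 0.55 ± 0.16 after SIINFEKL (0.032) and 0.48 ± 0.14 after TER119-SIINFEKL (0.012). The OVA call was lost without any Naive library or OVA replicate 1 or 3, the SIINFEKL call without any Naive library or SIINFEKL replicate 1, and the TER119-SIINFEKL call without TER119-SIINFEKL replicate 1.

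Deacetylases moved both ways after OVA, ERY1-OVA and TER119-SIINFEKL. Class I enzymes Hdac1 and Hdac3, catalytic subunits of nuclear corepressor complexes, and class IIb enzymes Hdac6 and Hdac10 rose, and class IIa enzymes Hdac4 and Hdac5, which shuttle between nucleus and cytoplasm, fell. Hdac1 read 70.8, 66.5 and 65.4 RPKM in Naive libraries, 110 to 125 after OVA, 110 to 123 after ERY1-OVA, 82.2 and 78.8 after SIINFEKL, and 107 to 122 after TER119-SIINFEKL. It rose by 0.81 ± 0.09 (adjusted p = 1.5e-05), 0.79 ± 0.09 (2.4e-05) and 0.78 ± 0.09 (1.9e-05), and was at 0.25 ± 0.10 (0.11) after SIINFEKL. Hdac3 rose by 0.76 ± 0.11, 0.71 ± 0.11 and 0.82 ± 0.11, and Hdac2 was at 0.10, -0.22 and -0.06 in the same comparisons. After SIINFEKL Hdac2 fell by 0.56 ± 0.13 (adjusted p = 0.014), a call lost without SIINFEKL replicate 1 or in a fit of only the groups compared, and in TER119-SIINFEKL against SIINFEKL it was higher by 0.50 ± 0.13 (0.010), lost in both of these and with the length and GC correction. Class I Hdac8 and class IIa Hdac7 were not called against Naive. Hdac4 read 8.98 to 9.88 RPKM in Naive libraries and 3.97 to 5.93 over the 9 libraries of OVA, TER119-SIINFEKL and ERY1-OVA, with changes of -0.88 ± 0.16 (0.00052), -0.78 ± 0.16 (0.0016) and -0.99 ± 0.16 (0.00019). The second Hdac4 entry gave -1.02 ± 0.19, -1.12 ± 0.19 and -1.32 ± 0.19, and reads could be split between the entries. Corrected for length and GC, Hdac4 was at -0.53, -0.52 and -0.64, all still called, and Hdac5 went from -0.62, -0.80 and -0.92 to -0.36, -0.52 and -0.57, which lost its OVA call. Hdac6, whose main substrates are cytoplasmic, rose by 1.03 ± 0.26 (0.0060), 0.71 ± 0.26 (0.043) and 0.85 ± 0.26 (0.016). Its ERY1-OVA call was lost in 6 of 18 alternatives, without any Naive library or ERY1-OVA replicate 1 or 3 among them, and its TER119-SIINFEKL call without TER119-SIINFEKL replicate 2 or 3. Hdac10, a class IIb enzyme, rose after all 4 antigens, from 3.98 to 5.80 RPKM in Naive libraries to 10.5 and 8.92 after SIINFEKL (0.93 ± 0.21, adjusted p = 0.010, lost without SIINFEKL replicate 1). Its TER119-SIINFEKL call was lost without Naive replicate 2 or TER119-SIINFEKL replicate 3. Among 7 sirtuins, which use NAD, Sirt1 was the only call in any comparison with Naive, at 0.32 ± 0.11 after OVA (0.025), and it was lost in 4 of 19 alternatives, leaving out Naive replicate 1, Naive replicate 3 or OVA replicate 3 among them.

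Arginine methyltransferases differed from each other. Prmt1, which makes most of the asymmetric dimethylarginine, read 77.6, 66.8 and 77.2 RPKM in Naive libraries, 138, 110 and 118 after OVA, 73.4, 89.0 and 100 after ERY1-OVA, 51.1 and 56.3 after SIINFEKL, and 124, 106 and 124 after TER119-SIINFEKL. OVA and TER119-SIINFEKL were above the Naive range, SIINFEKL was below it and ERY1-OVA overlapped it. The changes were 0.72 ± 0.13 after OVA (adjusted p = 0.00063), 0.68 ± 0.13 after TER119-SIINFEKL (0.00089), -0.46 ± 0.15 after SIINFEKL (0.047) and 0.24 ± 0.13 after ERY1-OVA (0.16). The SIINFEKL call was lost in 10 alternatives, without either SIINFEKL library or any Naive library among them. Prmt5, the main symmetric methyltransferase, rose by 0.88 ± 0.14 after OVA (0.00021) and 0.52 ± 0.14 after TER119-SIINFEKL (0.0072). Prmt3, which methylates a ribosomal protein, fell after all 4 antigens, by 0.45 to 0.87. Its SIINFEKL call was lost without SIINFEKL replicate 1 and its OVA call without OVA replicate 1 or Naive replicate 3.

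Among remodellers, more SMARC genes, which include the SWI/SNF subunits, rose than fell, and CHD genes fell or were not called. Of 11 SMARC genes, 5 rose and 1 fell after OVA, 3 rose and 1 fell after ERY1-OVA, and 5 rose and 1 fell after TER119-SIINFEKL. Over all genes 24.4%, 20.9% and 24.6% rose, and the ERY1-OVA count was near that share. The rises include Smarce1, whose calls were lost in 12, 11 and 7 of 19 alternatives. With the length and GC correction Smarce1 was at 0.15, 0.06 and 0.15 and not called. Smarcc1, a core scaffold, read 16.2, 21.2 and 15.1 RPKM in Naive libraries, 32.7 to 48.7 after OVA, 31.2 to 46.2 after ERY1-OVA, 22.6 and 19.0 after SIINFEKL, and 28.9 to 53.1 after TER119-SIINFEKL. It rose by 1.25 ± 0.23 (adjusted p = 0.00074), 1.04 ± 0.23 (0.0032) and 1.25 ± 0.23 (0.00064). Smarcb1, another core subunit, rose by 0.54 ± 0.10, 0.42 ± 0.10 and 0.56 ± 0.10. The 2 alternative ATPases did not move alike: Smarca2 read 46.6 to 51.3 RPKM in Naive libraries and 21.5 to 29.7 after OVA, ERY1-OVA and TER119-SIINFEKL, while Smarca4 was at 0.35, 0.18 and 0.31 and not called. Smarca2 fell by 0.89 ± 0.13 (0.00011), 0.83 ± 0.13 (0.00024) and 1.06 ± 0.13 (2.3e-05).

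Of 9 CHD genes, 5 fell after OVA, 4 after ERY1-OVA and 5 after TER119-SIINFEKL, and none rose. Over all genes 23.1%, 19.0% and 23.0% fell. Chd2, a nucleosome-spacing remodeller, read 20.1 to 22.6 RPKM in Naive libraries, 11.5 to 12.6 after OVA, 14.3 to 17.1 after ERY1-OVA, 22.9 and 23.3 after SIINFEKL, and 9.34 to 12.9 after TER119-SIINFEKL. It fell by 0.79 ± 0.12 (adjusted p = 0.00019), 0.43 ± 0.12 (0.014) and 0.90 ± 0.12 (5.7e-05). The ERY1-OVA calls of Chd2 and Chd7 were lost without Naive replicate 2 or ERY1-OVA replicate 2. Chd7 fell by 0.59 ± 0.16, 0.51 ± 0.16 and 1.06 ± 0.16, and Chd6 by 0.98 ± 0.14, 0.65 ± 0.14 and 0.82 ± 0.14. Corrected for length and GC, Chd7 was at -0.32, -0.32 and -0.80 and Chd6 at -0.60, -0.40 and -0.48, all still called. The counts include Chd8 after OVA (-0.40) and TER119-SIINFEKL (-0.35), whose calls were lost with the correction, at -0.08 and -0.06. The NuRD ATPase Chd4, among the most abundant chromatin genes in Naive cells at a mean of 86.6 RPKM, was at -0.03, 0.01 and 0.21 and not called. Of 7 bromodomain readers, 2 rose and 1 fell after OVA and after ERY1-OVA. These counts were near the shares of all genes, 24.4% higher and 23.1% lower after OVA and 20.9% and 19.0% after ERY1-OVA. Brd1 fell after all 3 of these antigens (by 0.62 ± 0.17, 0.72 ± 0.17 and 0.84 ± 0.17), and Brd9, a SWI/SNF subunit, rose (by 0.57 ± 0.16, 0.53 ± 0.16 and 0.42 ± 0.16), with the ERY1-OVA call lost without Naive replicate 2 or ERY1-OVA replicate 3 and the TER119-SIINFEKL call without any Naive library or TER119-SIINFEKL replicate 2 or 3.

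**Figure D3:**
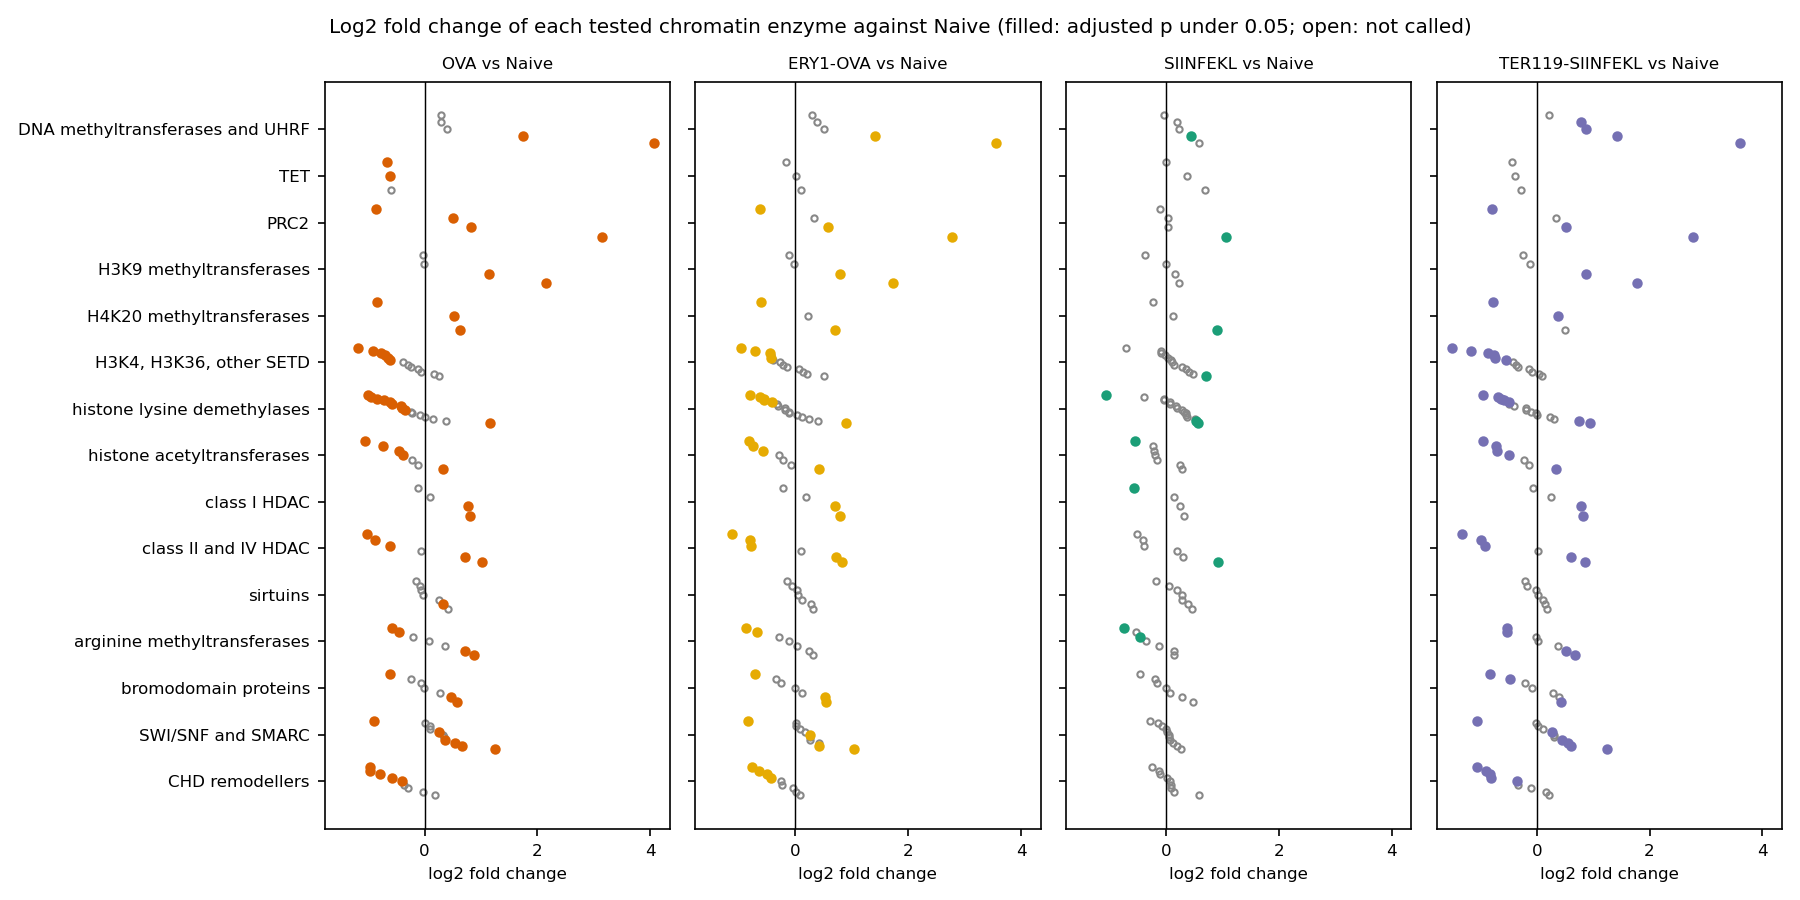
Log2 fold change against Naive of each tested chromatin enzyme (points, filled where adjusted p was under 0.05), by role and antigen. The UHRF and DNMT, PRC2 and H3K9 groups reach the highest values after OVA, ERY1-OVA and TER119-SIINFEKL, CHD points lie mainly below 0, and few SIINFEKL points are filled.

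The genes that fell were long. Summed exon length was known for 105 of the 107, and its median was 13786 bp in those lower after OVA and 5288.5 bp in those higher. It was 6824 bp over all entries matched and 4486 bp over all matched genes in the table. The difference was not particular to chromatin genes: over all tested genes the medians were 5610.5 bp in those lower after OVA and 3690 bp in those higher. Across the 105, log2 fold change and exon length had a Spearman rho of -0.58 after OVA, -0.39 after ERY1-OVA, -0.50 after TER119-SIINFEKL and 0.11 after SIINFEKL. With the length and GC correction these were -0.38, -0.21, -0.32 and 0.06. These are descriptions across genes, which share libraries and are not independent. Of those with a length, 20 of 24 called higher and 28 of 35 called lower after OVA were still called with the correction, 17 of 18 and 22 of 25 after ERY1-OVA, and 22 of 23 and 27 of 30 after TER119-SIINFEKL. The median of those that fell after OVA went from -0.70 to -0.56. The part of length in these falls was not tested further.

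**Figure D4:**
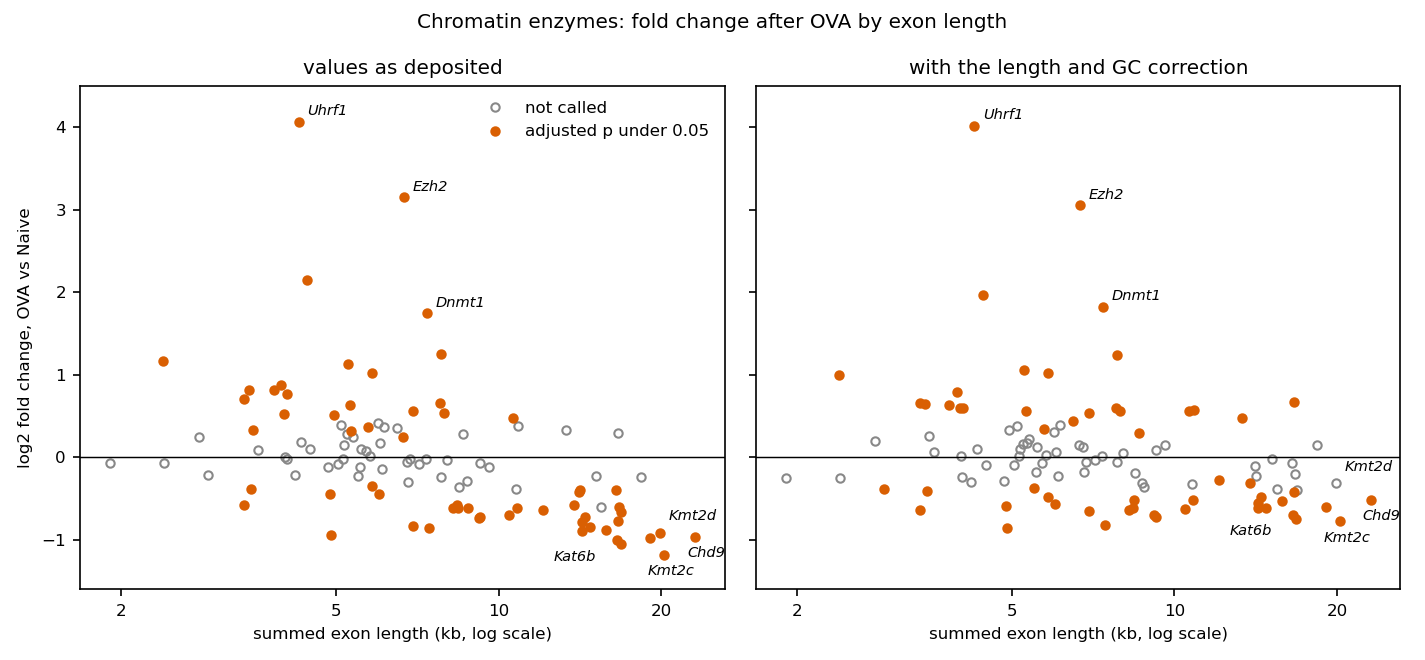
Log2 fold change after OVA (vertical) against summed exon length in kb on a log axis (horizontal) for the tested chromatin enzymes with a known length, as deposited (left) and with the correction for length and GC (right), filled where adjusted p was under 0.05. Long genes lie lowest on the left, where Kmt2c is at -1.18 and Kmt2d at -0.92, and on the right they stand at -0.78 and -0.32.

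Whether joining the antigen to erythrocytes changed these genes was asked separately for protein and peptide. ERY1-OVA against OVA gave 0 of 107 calls by limma (1.06% of all genes were called), with 21 at an unadjusted p under 0.05 (17.2% of all genes) and 7 higher and 22 lower with array weights. The nearest to a call were Prmt5, at 64.0, 49.4 and 54.6 RPKM after ERY1-OVA and 82.8, 79.4 and 84.1 after OVA (-0.56 ± 0.14, adjusted p = 0.067), and Prmt1 (-0.48 ± 0.13, 0.083). Uhrf1 was at -0.52 ± 0.36 (0.51), Dnmt1 at -0.33 ± 0.26 (0.56) and Ezh2 at -0.37 ± 0.22 (0.44). A p above the threshold does not show that the groups were alike.

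TER119-SIINFEKL against SIINFEKL gave 18 higher and 36 lower (50.5%, against 37.4% of all genes, 20.4% higher and 17.0% lower), with a median of -0.19 beside -0.00 over all genes. The genes that were higher included Uhrf1 (3.38 ± 0.40), Ezh2 (1.70 ± 0.25), Suv39h2 (1.54), Dnmt1 (1.45), Suv39h1 (1.24), Prmt1 (1.14) and Prmt7 (0.91). Suv39h2 passed the filter only through groups where it was high, TER119-SIINFEKL among them, and its value was as low as 0.90 over the alternatives. The genes that were lower included Kmt2d (-1.44 ± 0.24), Kmt2c (-1.40), Kmt2a (-1.09), Tet2 (-1.08 ± 0.26), Chd2 (-1.03), Kat2b (-0.99) and Chd7 (-0.94). By role, 8 of 13 H3K4, H3K36 and SETD genes, 9 of 16 demethylases and 6 of 9 CHD genes were lower. In a fit of only these 2 groups 20 were lower in place of 36, the Tet2 call was lost without SIINFEKL replicate 1, and 27 of the 54 calls held in every alternative run apart from the 2-fold requirement.

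The difference between the 2 targeting effects, (ERY1-OVA minus OVA) minus (TER119-SIINFEKL minus SIINFEKL), was called for 53 chromatin genes (49.5%, against 37.7% of all genes). It was higher for 33 (17.1% of all genes) and lower for 20 (20.6%), and for 27 and 27 without OVA replicate 1 and TER119-SIINFEKL replicate 1. Uhrf1, Ezh2, Suv39h2, Dnmt1 and Suv39h1 were higher with the targeted peptide than with the free one, while for the protein they lay between -0.52 and -0.33 and were not called. Of them, Suv39h2 passed the filter only through the OVA, ERY1-OVA and TER119-SIINFEKL groups. The differences were -3.89 ± 0.54 for Uhrf1 (adjusted p = 0.00016), -2.07 ± 0.33 for Ezh2 (0.00045) and -1.62 ± 0.20 for Prmt1 (6.5e-05). The reverse held for Kmt2d, at 1.91 ± 0.32 (0.00056), Tet2, at 1.76 ± 0.35 (0.0017), and Chd2, at 1.39 ± 0.18 (0.00011). This term mixes protein with peptide, ERY1 with TER119, and the SIINFEKL pair with groups of 3, which cannot be told apart.

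**Figure D5:**
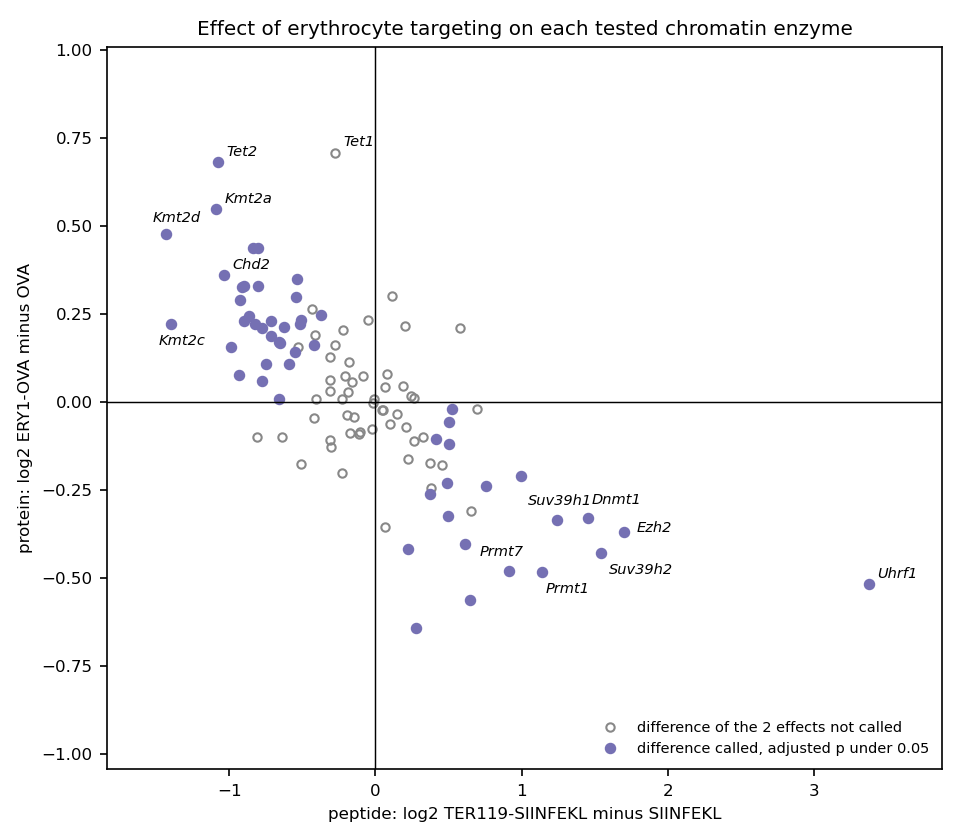
Targeting effect on each tested chromatin enzyme for the peptide (horizontal, log2 TER119-SIINFEKL minus SIINFEKL) and the protein (vertical, log2 ERY1-OVA minus OVA), on different scales, with points filled where the difference of the effects was called. Uhrf1 is farthest right at 3.38, Kmt2d farthest left at -1.44, and vertical values lie between -0.64 and 0.71.

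The targeted groups did not differ in a called gene: TER119-SIINFEKL against ERY1-OVA gave 0 of 107 by limma (0.562% of all genes), with 14 at an unadjusted p under 0.05 (10.9% of all genes) and 23 higher and 10 lower with array weights. Uhrf1 was at 0.05 ± 0.36, Dnmt1 at 0.01 ± 0.26, Ezh2 at -0.01 ± 0.22 and Suv39h2 at 0.05 ± 0.21. The lowest value was that of Kmt2d, -0.72 ± 0.21 (adjusted p = 0.18).

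Chromatin genes outside the rule, in lists of partners and of genes tied to division, give the setting. Of 6 cell cycle genes all rose after OVA, ERY1-OVA and TER119-SIINFEKL, and 4 after SIINFEKL, and their summed level was 126 to 130 RPKM in Naive libraries, 781 to 918 after OVA, 680 to 754 after ERY1-OVA, 191 and 95.7 after SIINFEKL and 599 to 733 after TER119-SIINFEKL. The cell cycle sum was thus high in the same groups as Uhrf1, Ezh2, Dnmt1 and Suv39h2, and its part in their rise was not tested. Of 11 genes of chromatin assembly at replication, 11, 10 and 11 rose after OVA, ERY1-OVA and TER119-SIINFEKL, with medians of 1.91, 1.80 and 1.61, and 1 rose and 1 fell after SIINFEKL. Chaf1a, which deposits histones behind the fork, rose by 4.19 ± 0.43 after OVA (adjusted p = 5.2e-06) and Hells, a remodeller that supports DNA methylation, by 3.67 ± 0.20 (6.6e-08). Of 27 partners of PRC1 and PRC2, 4 rose and 9 fell after OVA, where 24.4% of all genes rose and 23.1% fell. Phf19 and Phf1, accessory subunits that bind PRC2 in the alternative, moved apart, with Phf19 up by 3.65 ± 0.27 (4.7e-07) and Phf1 down by 1.05 ± 0.22 (0.0017).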

How the data were processed

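Poly(A) RNA of sorted OT-I cells was sequenced as stranded libraries. The authors deposited 1 table of log2 RPKM for 14 libraries, of which 4.30% of values were negative, so the prior count is not given in the sources used here. The submitters' processing notes name STAR 2.4.2, bcl2fastq 2.17.1.14 and edgeR, with mm10 and GRCm38 as builds, and give no role or order. Read counts were not used here, so depth is unknown and no counting interval is given.

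Values were used as deposited. Genes with a mean of at least 1 RPKM were kept (9793, with 313 removed), and a model of 5 group means with a mean-variance trend was fitted over all 14 libraries (limma 3.58.1, R 4.3.3). Tests were two-sided, and a Benjamini-Hochberg adjusted p under 0.05 over all tested genes of a comparison was called. The 8 comparisons set each of the 4 antigens against Naive, TER119-SIINFEKL against both SIINFEKL and ERY1-OVA, the targeted against the free protein, and the protein's targeting effect against the peptide's. Design and tests were set with values assumed to be RPKM; the deposited logarithms needed no pseudocount.

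The chromatin genes, their 15 role lists, the other lists and the alternatives were chosen with earlier results of these data known. Named genes are all of the DNMT and UHRF, TET, PRC2 and H3K9 lists, up to 8 largest rises and falls per comparison among called genes whose groups did not overlap, up to 3 per other role list by adjusted p, genes below the filter, and up to 5 per list outside the rule. Not all that the rule takes are described. A few abundant or paired relatives (Smarca4, Chd4, Hdac7, Hdac8, Chd8), and Smarce1, were added after their values were seen. Of the tested genes, 1 is counted but not reported by name here. Of the 108 entries, 106 matched GENCODE on GRCm38 by Ensembl identifier. The length and GC correction was made per library over 9716 genes.

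Of the comparisons made, replicate numbers paired the samples only in TER119-SIINFEKL against Naive, where same-numbered libraries deviated together (correlations of 0.26, 0.32 and 0.30). Same-numbered OVA and TER119-SIINFEKL libraries, which were not compared directly, correlated at 0.67, 0.29 and 0.25, but the numbers did not pair them. OVA replicate 3 with TER119-SIINFEKL replicate 2 stood at 0.55, and OVA replicate 2 with TER119-SIINFEKL replicate 3 at 0.44. Pairs of replicate 1 of either group with replicate 2 or 3 of the other were at -0.54 to -0.46. The procedure was tested on simulated data. Tables and figures were made with matplotlib 3.10.9, numpy 2.4.6 and pandas 2.3.3 under Python 3.11.15.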

Additional observations from a re-analysis of the deposited data

Results flagged for a closer look

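The effect of joining antigen to erythrocytes differed between protein and peptide, by the interaction term of limma (Benjamini-Hochberg adjusted p under 0.05), in 33 chromatin genes with a higher and 20 with a lower value for the protein. Without OVA replicate 1 and TER119-SIINFEKL replicate 1 they were 27 and 27. In all 53 the difference was tested in itself. The SIINFEKL group has 2 libraries, and 34 of the 53 calls held in every alternative run apart from the 2-fold requirement.

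Lower values, (ERY1-OVA minus OVA) minus (TER119-SIINFEKL minus SIINFEKL), were found for Uhrf1 (-3.89), Ezh2 (-2.07), Suv39h2 (-1.97), Dnmt1 (-1.78), Prmt1 (-1.62), Suv39h1 (-1.58), Prmt7 (-1.39), Smarcc1 (-1.21) and Eed (-0.72). The Smarcc1 call was lost without SIINFEKL replicate 2. Suv39h2 passed the filter on low values only through the OVA, ERY1-OVA and TER119-SIINFEKL groups. Uhrf1 recruits Dnmt1, and Ezh2 and Eed are both subunits of PRC2.

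Higher values were found for Kmt2d (1.91), Tet2 (1.76), Kmt2a (1.64), Kmt2c (1.62), Chd2 (1.39), Kdm5b (1.28), Chd3 (1.24), Tet3 (1.24) and Ezh1 (1.05). With the length and GC correction Kmt2d was at 1.21, Tet2 at 1.35, Kmt2a at 1.20, Kmt2c at 1.12 and Tet3 at 0.73, all still called. The median exon length was 14269 bp among those higher and 4474 bp among those lower. Over all tested genes it was 6102 bp and 3616 bp. The part of length in the difference was not tested further.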

How the results depend on the processing

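Counts here are of chromatin genes called higher and lower. With a 2-fold change also required they were 8 and 3 for OVA, 5 and 1 for ERY1-OVA, 1 and 1 for SIINFEKL and 5 and 5 for TER119-SIINFEKL against Naive, 6 and 5 for TER119-SIINFEKL against SIINFEKL, and 16 and 10 for the difference of the targeting effects. With array weights, whose iteration stopped short of its tolerance, SIINFEKL against Naive had 2 and 3, TER119-SIINFEKL against Naive 37 and 37, the difference 32 and 29, ERY1-OVA against OVA 7 and 22, and TER119-SIINFEKL against ERY1-OVA 23 and 10. Fitted on only the groups compared, SIINFEKL against Naive had 2 and 1, and TER119-SIINFEKL against SIINFEKL 20 lower. With the length and GC correction SIINFEKL against Naive had 17 higher, which took the higher share of its calls from 58.3% to 70.8%, and ERY1-OVA against OVA had 1 higher. Without both OVA replicate 1 and TER119-SIINFEKL replicate 1, SIINFEKL against Naive had 11 and 9, TER119-SIINFEKL against Naive 28 and 28, and the difference 27 and 27, which took its higher share from 62.3% to 50%. With the SIINFEKL group out of the model, ERY1-OVA against OVA had 2 lower and TER119-SIINFEKL against ERY1-OVA 1 lower. Leaving out libraries gave 17 (without Naive replicate 2) to 29 lower for ERY1-OVA against Naive, and 1 to 12 higher and 0 to 10 lower for SIINFEKL against Naive. The causes were not tested. With the replicate number as a block the counts were 24 and 35 for OVA, 16 and 27 for ERY1-OVA, 5 and 4 for SIINFEKL and 24 and 31 for TER119-SIINFEKL against Naive, 17 and 36 for TER119-SIINFEKL against SIINFEKL and 34 and 19 for the difference. In the 1 comparison whose numbers paired the samples, TER119-SIINFEKL against Naive, the block changed no call. Of 279 calls, quantile normalization lost 10 and gained 20, median-of-ratios rescaling 2 and 2, a pseudocount of 1 lost 1 and gained 1, and pseudocount 0.1 and no filter on low values changed 0. No called value changed sign; values called in neither analysis were not counted. Read depth is unknown and SIINFEKL has 2 libraries, and both limit precision. Where 1 of them was left, its spread was taken from the other groups.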

Other observations

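Enzymes outside the rule that write or erase chromatin marks were also measured, 24 in all. Of them 8 rose and 7 fell after OVA, 6 and 4 after ERY1-OVA, 3 and 4 after SIINFEKL, and 10 and 9 after TER119-SIINFEKL. Over all genes tested 24.4% rose and 23.1% fell after OVA, 20.9% and 19.0% after ERY1-OVA, 7.58% and 8.34% after SIINFEKL, and 24.6% and 23.0% after TER119-SIINFEKL. Whsc1, the lysine 36 methyltransferase NSD2, rose from 3.10, 3.84 and 3.30 RPKM in Naive libraries to 19.9, 28.1 and 30.9 after OVA, 29.9, 20.1 and 22.2 after ERY1-OVA, and 17.3, 30.5 and 27.2 after TER119-SIINFEKL. Its log2 fold changes there were 2.93 ± 0.30, 2.80 ± 0.30 and 2.84 ± 0.30 (limma). After SIINFEKL it read 15.2 and 6.23 RPKM, a rise of 1.52 ± 0.33 (adjusted p = 0.0090). Tdg, the glycosylase that removes oxidised methylcytosine made by TET enzymes, rose after OVA by 1.10 ± 0.11 (adjusted p = 5.9e-06), after ERY1-OVA by 0.91 ± 0.11, after SIINFEKL by 0.55 ± 0.13 and after TER119-SIINFEKL by 1.15 ± 0.11, while no TET gene was called higher.

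Smyd2, a lysine methyltransferase, was called in the comparison of targeted with free protein, in which 0 chromatin genes of the rule were. It read 6.44, 7.04 and 7.40 RPKM in Naive libraries, 10.8, 9.69 and 10.9 after OVA, 5.72, 6.53 and 7.11 after ERY1-OVA, 3.16 and 3.35 after SIINFEKL, and 10.4, 13.1 and 12.9 after TER119-SIINFEKL. OVA and TER119-SIINFEKL lay above the Naive range and SIINFEKL below it. ERY1-OVA minus OVA was -0.70 ± 0.13 (adjusted p = 0.030) and TER119-SIINFEKL minus ERY1-OVA 0.91 ± 0.13 (adjusted p = 0.011). Crebbp, an acetyltransferase, fell by 0.93 ± 0.16 after OVA (adjusted p = 0.00045) and 1.07 ± 0.16 after TER119-SIINFEKL (adjusted p = 0.00013).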
